A study of Arabidopsis thaliana with 14 samples.

Results

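The transcripts described here are those of the plastid genome, measured in Arabidopsis thaliana roots with the Affymetrix ATH1 array, where a set of short probes reads each transcript. A probe set was a member when its single annotated gene is encoded by the plastid, and 69 of the 22746 probe sets on the array met this rule. Each of the 69 reads a different gene, of 85 protein-coding plastid genes in the RefSeq table. By gene symbol they comprise 15 ribosomal protein genes (rpl and rps), 4 RNA polymerase genes (rpo), 5 photosystem I genes (psa), 15 photosystem II genes (psb), 6 cytochrome b6f genes (pet), 10 NADH dehydrogenase-like genes (ndh), 6 ATP synthase genes (atp), the rubisco large subunit gene rbcL and 7 others.

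The plants were 12 days old and of ecotype Col-0. They had grown for 10 days on medium with 100 µM boron and then spent 2 days at 0.3 µM (low) or 100 µM (sufficient) boric acid. Every group shared that growth at 100 µM and the same ecotype. There were 7 genotypes. Wild type and the single mutants bor1 and bor2 have the intact root channel NIP5;1, through which boric acid enters cells. Mutants of that channel were nip5;1 alone and its combinations with bor1, with bor2 and with nip6;1, written nip5;1 bor1, nip5;1 bor2 and nip5;1 nip6;1. BOR1 and BOR2 export borate from cells, and NIP6;1 is a channel of the same family that acts in the shoot. The 4 genotypes that carry nip5;1 are called channel mutants below, against 3 intact genotypes. The phenotype labels name the alleles nip5;1-1, bor1-1 and bor2-1. They record reduced root and shoot growth of channel mutants when boron is scarce, poor leaf expansion of bor1 and short roots of bor2. Each genotype and boron level has 1 array, and the labels do not say how many plants it pools, so p-values measure the spread between genotypes. The codes in the array titles run through all arrays at 0.3 µM and then all at 100 µM. What the codes stand for is not stated, and any difference in handling that followed them cannot be told apart from boron level.

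Plastids keep a small genome of their own, transcribed by a bacterial-type polymerase whose core is plastid-encoded and by a nuclear-encoded phage-type polymerase. Most plastid genes lie in clusters that are read into long transcripts and then cut into smaller ones, and plastid ribosomes translate them. Root plastids are mostly not green, yet they make starch, amino acids and fatty acids, and their photosynthesis genes are known to be read at a low level. Plastid mRNAs mostly lack long poly(A) tails, on which the usual array labelling starts, and the labels do not name the primer used. Probe sets differ in brightness for the same amount of RNA, so signals are compared between arrays for 1 gene and never between genes.

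Values are MAS5 signal intensities on a linear scale that the authors had brought to a common mean, and array medians ran from 194 to 204. Differences are log2 of the signal at 0.3 µM minus log2 at 100 µM, with signals under 20 set to that floor. Probe sets in the upper 60% by mean signal (above 113) were tested, 13647 in all. Of 18 root marker genes 3 were named on the array and their summed signal ran from 18518 to 22222 over the 14 arrays. PYK10, a root β-glucosidase and by far the brightest of them, stood at 18571 ± 902 (SD, n = 7) at 0.3 µM and 18657 ± 999 at 100 µM. The others, EXPA7 and EXPA18, had higher means at 0.3 µM, and each was lower there in only 1 genotype. EXPA7 stood at 1120 ± 198 at 0.3 µM and 1028 ± 153 at 100 µM, and EXPA18 at 1295 ± 256 and 1054 ± 118. Of 19 shoot marker genes 3 were named (LHCB4.1, LHCB4.2 and RCA), none of them listed at 0, with a summed signal of 1073 to 3276 at 0.3 µM and 1492 to 2890 at 100 µM.

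Of the 69 members, 34 passed the brightness filter and 35 did not. The tested members were 10 of 15 ribosomal, 2 of 4 polymerase, 3 of 5 photosystem I, 8 of 15 photosystem II, 2 of 6 cytochrome b6f, 3 of 10 ndh and 2 of 6 atp genes, with rbcL and 3 of the 7 others. Every tested member was above the floor on all 14 arrays. The median signal of the 34 was 584 ± 97.9 (SD, n = 7 arrays) at 0.3 µM and 776 ± 112 at 100 µM, and it was lower at 0.3 µM in all 7 genotypes.

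Across the 7 genotypes 11 of the 34 tested transcripts fell at low boron and 0 rose, 32.4% against 1.82% of all tested probe sets that fell, while 1.95% of all rose. They were rpl16, rps19, rpl14 and rpl22 of the ribosome, psaJ and psaB of photosystem I, psbE and psbJ of photosystem II, ndhC, atpB, and ccsA. The remaining 23 did not pass. All 34 estimates lay below 0 (51.1% of all tested probe sets did), with a median of -0.36 against -0.0040 for all tested probe sets. The test was limma's moderated test with genotype as a block and Benjamini-Hochberg adjustment over 13647 probe sets, and 27 of the 34 had an unadjusted p under 0.05 (19.9% of all tested probe sets did). In RNA of whole roots, fewer plastids or plastid-rich cells and less RNA per plastid cannot be told apart.

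These 11 calls were lost under a pair of other settings. The GAPDH control's 3′ signal divided by its 5′ signal was 1.68 ± 0.167 (SD, n = 7) at 0.3 µM and 1.44 ± 0.201 at 100 µM. With its log2 value as a covariate 0 of 34 passed (adjusted p from 0.0893 to 0.430 for the 11), while the median of the 34 was -0.42, and 27 of 13647 probe sets passed in place of 514. With no brightness filter 0 members passed as well (adjusted p from 0.0731 to 0.172), and 13 probe sets in all. That run left the estimates of the 11 unchanged. It also took in probe sets at the floor on every array, 7 members among them, whose part in the lost calls was not tested. With a genotype left out 4 to 10 members passed, the fewest without nip5;1 bor2 (4), nip5;1 (5), and bor1 or nip5;1 bor1 (6 each). With no genotype block 6 passed, and ccsA, psbE, rpl14, ndhC, atpB and psbJ were lost (adjusted p from 0.0608 to 0.144). With genotype as a random block 8 passed, and psbE (0.0922), rpl14 (0.0507), ndhC (0.0507) and psbJ (just above the threshold) were lost. With no intensity trend psaJ, rpl22 and psbE were lost, and with arrays scaled to a common median psbE was.

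**Figure D1:**
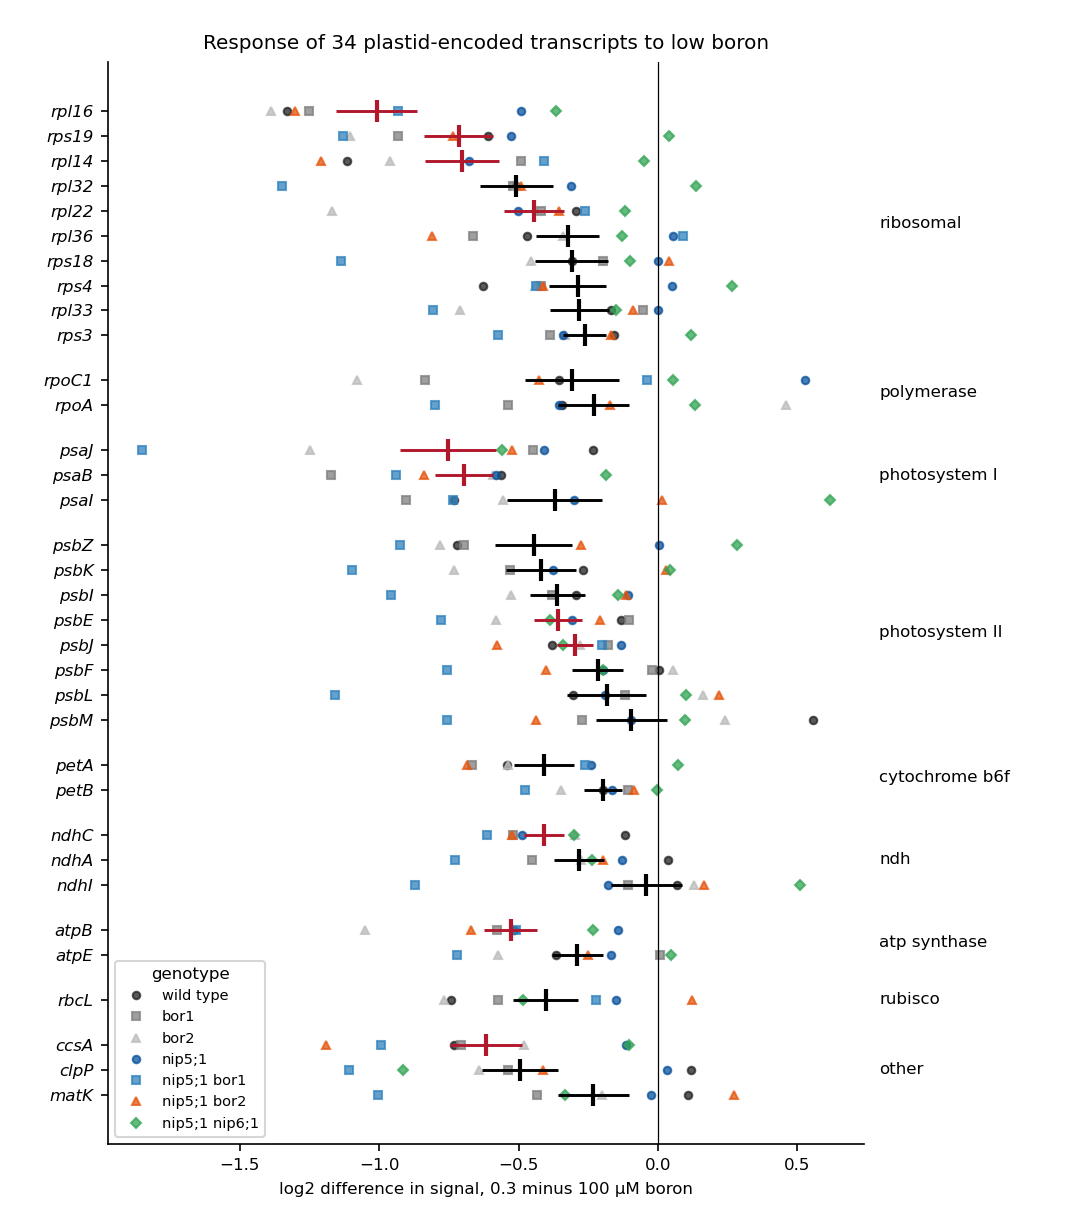
Log2 difference in signal between 0.3 and 100 µM boron for the 34 tested plastid-encoded transcripts, by functional group. Each symbol is 1 genotype, the vertical tick is the mean and the horizontal bar its standard error from limma, and red marks the 11 transcripts with an adjusted p under 0.05. All 34 means lie below 0, from -1.01 for rpl16 to -0.04 for ndhI.

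Among the ribosomal protein genes 4 of the 10 tested fell, and the median of the 10 was -0.39. The transcript of rpl16, a large-subunit protein, read 206 in wild type, 183 in bor1, 375 in bor2, 150 in nip5;1, 147 in nip5;1 bor1, 193 in nip5;1 bor2 and 149 in nip5;1 nip6;1 at 100 µM. In the same order it read 82.0, 76.8, 143, 107, 76.9, 78.1 and 115 at 0.3 µM. Every array at 0.3 µM was below every array at 100 µM, which held for 2 of the 34 tested members and 0.425% of all tested probe sets. The bor2 arrays were the highest at both levels. The mean difference was -1.01 (SE 0.15, n = 7 genotypes, limma adjusted p = 0.0059), a 2.01-fold lower signal.

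The small-subunit gene rps19 read 675, 832, 1227, 813, 793, 611 and 538 at 100 µM in the same order of genotypes. At 0.3 µM it read 443, 436, 570, 565, 362, 367 and 553. The levels overlapped only through the nip5;1 nip6;1 array at 100 µM, the lowest of that level, and the other 6 genotypes were lower at 0.3 µM. The mean difference was -0.71 (SE 0.12, adjusted p = 0.0140).

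The large-subunit gene rpl14 read 383, 342, 445, 311, 186, 252 and 177 at 100 µM. It read 176, 243, 228, 194, 140, 109 and 171 at 0.3 µM. All 7 genotypes were lower at 0.3 µM, with differences from -1.21 in nip5;1 bor2 to -0.05 in nip5;1 nip6;1. The levels overlapped, with the 2 lowest arrays at 100 µM (nip5;1 bor1 and nip5;1 nip6;1) inside the range at 0.3 µM. The mean difference was -0.70 (SE 0.13, adjusted p = 0.0210), and without nip5;1 or without nip5;1 bor2 it did not pass (adjusted p up to 0.0640).

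Another large-subunit gene, rpl22, had signals of 632 to 794 (median 720) at 0.3 µM and 841 to 1421 (median 918) at 100 µM, with no overlap. Its mean difference was -0.45 (SE 0.11, adjusted p = 0.0457). The bor2 pair differed by -1.17 and the other 6 by -0.12 to -0.50, and the call held without bor2 but was lost without any other genotype (adjusted p up to 0.122).

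The other 6 tested ribosomal protein genes (rpl32, rpl33, rpl36, rps3, rps4 and rps18) had differences from -0.51 to -0.26 that did not pass. The closest was rpl32, with a median signal of 894 at 0.3 µM and 1317 at 100 µM and a difference of -0.51 (SE 0.13, adjusted p = 0.0575). The small-subunit gene rps3 had a signal of 1987 ± 222 (SD, n = 7) at 0.3 µM and 2411 ± 454 at 100 µM, a difference of -0.26 (SE 0.08, adjusted p = 0.0861). Below the filter were rpl20, rps2, rps14, rps15 and rps16. Of these, rps14 was under the floor on average (17.8 ± 4.70 and 15.3 ± 6.22), and rps2 had a mean difference of -0.62, with 4 genotypes lower at 0.3 µM and 3 higher.

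**Figure D2:**
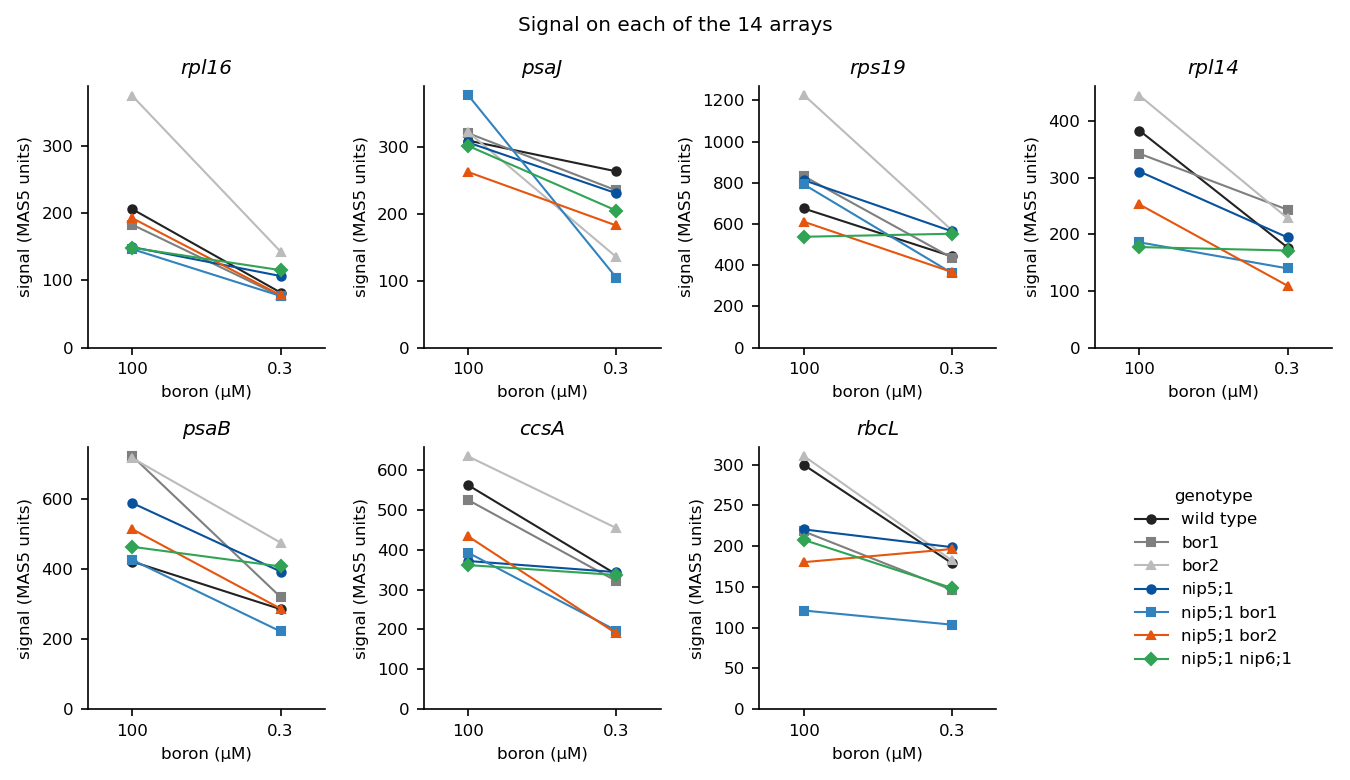
MAS5 signal of 7 plastid-encoded transcripts on each of the 14 arrays, at 100 and 0.3 µM boron. A line joins the arrays of 1 genotype. The lines of rpl16, psaJ, rpl14, psaB and ccsA go down in all 7 genotypes, and those of rps19 and rbcL in 6 of 7.

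The plastid-encoded RNA polymerase is made of the products of rpoA, rpoB, rpoC1 and rpoC2, and none of the tested pair fell. The gene for the α subunit, rpoA, had signals from 698 to 1326 (median 897) at 0.3 µM and from 886 to 1524 (median 1010) at 100 µM, a difference of -0.23 (SE 0.13, adjusted p = 0.34). The gene for the β′ subunit, rpoC1, had signals from 95.8 to 194 (median 170) at 0.3 µM and from 98.4 to 404 (median 164) at 100 µM, a difference of -0.31 (SE 0.17, adjusted p = 0.34). The 2 highest rpoC1 signals were those of bor2 (404) and bor1 (310) at 100 µM, and these genotypes read 191 and 174 at 0.3 µM. Of the dim pair, rpoB was at the floor on every array and rpoC2 had 33.3 ± 7.33 (SD, n = 7) at 0.3 µM and 41.3 ± 15.2 at 100 µM.

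Of the 3 tested photosystem I genes 2 fell, and their median was -0.70. The gene for the small subunit J, psaJ, read 309, 320, 322, 306, 377, 262 and 301 at 100 µM, in the order of genotypes given for rpl16. At 0.3 µM it read 263, 235, 135, 230, 104, 182 and 205. Apart from wild type at 0.3 µM, just above nip5;1 bor2 at 100 µM, the levels did not overlap. The difference was -0.75 (SE 0.17, adjusted p = 0.0388), with -1.85 in nip5;1 bor1 and -1.25 in bor2 against -0.23 to -0.56 elsewhere. The call was lost without any genotype other than wild type (adjusted p up to 0.0853).

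One of the pair of large core proteins that bind the reaction centre chlorophylls is encoded by psaB. Its signal was 420, 721, 715, 587, 425, 512 and 462 at 100 µM and 285, 319, 474, 392, 221, 286 and 406 at 0.3 µM, in the same order. All 7 genotypes were lower at 0.3 µM, from -1.17 in bor1 to -0.19 in nip5;1 nip6;1. The difference was -0.70 (SE 0.10, adjusted p = 0.0072), and the call held whichever genotype was left out, as it did for rpl16 and rps19 alone among the 11.

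The small subunit gene psaI differed by -0.37 (SE 0.17, adjusted p = 0.252), with 5 genotypes lower at 0.3 µM and nip5;1 nip6;1 higher by 0.62. The second core protein gene, psaA, and the iron-sulfur subunit gene psaC had mean signals of 10.1 and 6.34, under the floor. The floor held on 12 of the 14 arrays for psaA and on all 14 for psaC.

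Of the 8 tested photosystem II genes 2 fell, with a median of -0.33 over the 8. The gene for the α subunit of the photosystem's cytochrome, psbE, had signals of 477 to 946 (median 801) at 0.3 µM and 818 to 1112 (median 932) at 100 µM. It was lower in all 7 genotypes, with a mean difference of -0.36 (SE 0.09, adjusted p = 0.0451), but the call was lost without any genotype other than wild type (adjusted p up to 0.112). The small subunit gene psbJ had signals of 996 to 1498 (median 1283) at 0.3 µM and 1403 to 1827 (median 1486) at 100 µM. It was also lower in all 7, with a difference of -0.30 (SE 0.07, adjusted p = 0.0326), and its call was lost without any genotype other than bor2 (adjusted p up to 0.0838).

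The other 6 tested photosystem II genes, psbF, psbI, psbK, psbL, psbM and psbZ, did not pass. Among them psbI was lower in all 7 genotypes (-0.36, SE 0.10, adjusted p = 0.0698), and psbK in 5 (-0.42, SE 0.12, adjusted p = 0.0909). The small subunit gene psbM had 6895 ± 1498 (SD, n = 7) at 0.3 µM and 7451 ± 2045 at 100 µM, a difference of -0.10 (SE 0.13, adjusted p = 0.729). Its difference was 0.56 in wild type and -0.76 in nip5;1 bor1. Below the filter lay psbA, psbB, psbC, psbD, psbH, psbN and psbT. The gene for the D1 reaction centre protein, psbA, had 56.6 ± 17.5 at 0.3 µM and 68.9 ± 14.3 at 100 µM, and psbT was at the floor on every array.

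Neither tested cytochrome b6f gene passed. The cytochrome f gene petA had signals from 106 to 197 (median 173) at 0.3 µM and from 165 to 287 (median 209) at 100 µM, a difference of -0.41 (SE 0.11, adjusted p = 0.0575). The cytochrome b6 gene petB had signals from 786 to 1084 (median 1041) at 0.3 µM and from 976 to 1336 (median 1133) at 100 µM. It was lower in all 7 genotypes, with a difference of -0.20 (SE 0.07, adjusted p = 0.136). The dim members were petD, petG, petL and petN, with mean signals from 14.1 to 29.6.

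The ndh genes encode subunits of a complex that feeds electrons into the photosynthetic chain around photosystem I. Of the 3 tested, ndhC fell, with signals of 657 to 1267 (median 957) at 0.3 µM and 946 to 1557 (median 1320) at 100 µM. It was lower in all 7 genotypes, with a difference of -0.41 (SE 0.07, adjusted p = 0.0140), with -0.12 in wild type and -0.61 in nip5;1 bor1, and without nip5;1 it did not pass (adjusted p = 0.0563). The difference of ndhA was -0.28 (SE 0.09, adjusted p = 0.106). That of ndhI was -0.04 (SE 0.13, adjusted p = 0.891), with signals of 1457 to 2790 at 0.3 µM and 1958 to 2856 at 100 µM and 4 of 7 genotypes higher at 0.3 µM. The other 7 ndh genes were dim, and ndhF, ndhG and ndhH were at the floor on every array.

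Of the ATP synthase genes, atpB (the catalytic β subunit) fell and atpE (the ε subunit) did not pass. The signals of atpB were 1444 to 2410 (median 1957) at 0.3 µM and 2056 to 4157 (median 2620) at 100 µM. All 7 genotypes were lower, with a mean difference of -0.53 (SE 0.09, adjusted p = 0.0159), with -1.05 in bor2 and -0.14 in nip5;1, and without nip5;1 bor2 the call was lost (adjusted p = 0.0566). The signals of atpE were 3327 ± 791 (SD, n = 7) at 0.3 µM and 4025 ± 911 at 100 µM, a difference of -0.29 (SE 0.09, adjusted p = 0.107). Dim members were atpA, atpF, atpH and atpI, the last at the floor on every array.

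The large subunit of rubisco, the enzyme that fixes carbon dioxide, is encoded by rbcL. In the order of genotypes given for rpl16, its signal was 300, 218, 311, 220, 121, 180 and 208 at 100 µM. At 0.3 µM it was 179, 146, 182, 199, 104, 196 and 149. The levels overlapped, 6 of 7 genotypes were lower at 0.3 µM, and the difference of -0.40 (SE 0.12, adjusted p = 0.0839) did not pass.

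Outside these complexes, ccsA, whose product helps attach heme to c-type cytochromes, fell. It read 563, 525, 635, 372, 393, 434 and 362 at 100 µM and 339, 322, 455, 344, 197, 190 and 337 at 0.3 µM. All 7 genotypes were lower, with -0.10 in nip5;1 nip6;1 and -0.11 in nip5;1 against -1.19 to -0.48 in the other 5. The mean was -0.62 (SE 0.13, adjusted p = 0.0276), and the call was lost without bor1, nip5;1 bor1 or nip5;1 bor2 (adjusted p up to 0.0777). The protease subunit gene clpP had 890 ± 198 (SD, n = 7) at 0.3 µM and 1235 ± 156 at 100 µM, a difference of -0.49 (SE 0.14, adjusted p = 0.0685), and the intron maturase gene matK differed by -0.23 (SE 0.13, adjusted p = 0.343). Below the filter were accD, cemA, ycf3 and ycf4. The photosystem I assembly gene ycf3 was lower in all 7 genotypes (50.3 ± 8.08 against 78.1 ± 18.7, mean difference -0.62), and ycf4 had 26.6 ± 7.11 against 34.4 ± 9.03.

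Over the 35 dim members 25 mean differences were below 0, 3 above and 7 at 0, the last being those at the floor on all arrays. The 71.4% below 0 compares with 38% of all 9099 probe sets below the filter. Those of the 9099 at 0 were not counted apart from those above 0, so these shares do not compare direction alone. The median of the 35 was -0.10. In 15 the mean signal was under the floor, which pulls differences towards 0. Just under the filter stood atpA (mean signal 89.5, difference -0.24) and ndhD (92.2, -0.10), and just above it psaI (144, -0.37) and rpl16 (149, -1.01). Over all 69 members the median was -0.28, with 59 differences below 0. Of the tested 34, 13 were lower in all 7 genotypes, 38.2% against 4.13% of all tested probe sets.

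The estimates were also set out by transcription unit, a run of neighbouring genes read into 1 transcript. In the rpl23 unit the differences in order along the genome were -0.71 for rps19, -0.45 for rpl22, -0.26 for rps3, -1.01 for rpl16, -0.70 for rpl14, -0.32 for rpl36 and -0.23 for rpoA. The ribosomal protein gene with the smallest estimate there, rps3, lies between rpl22 and rpl16, which both fell. In the psbE unit the 4 genes psbE, psbF, psbL and psbJ lay closer together, from -0.36 to -0.18. The paired genes psbK and psbI had -0.42 and -0.36, and atpB and atpE had -0.53 and -0.29. In the cluster of psaJ, rpl33 and rps18, psaJ had -0.75 and the other two -0.28 and -0.31. In the cluster that also holds ycf4 and cemA, psaI and petA had -0.37 and -0.41. The ndhH unit, a separate one, had -0.28 for ndhA and -0.04 for ndhI. Differences between genes within a unit were not tested, and the probe sets of a unit can lie in different processed fragments of it.

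**Figure D3:**
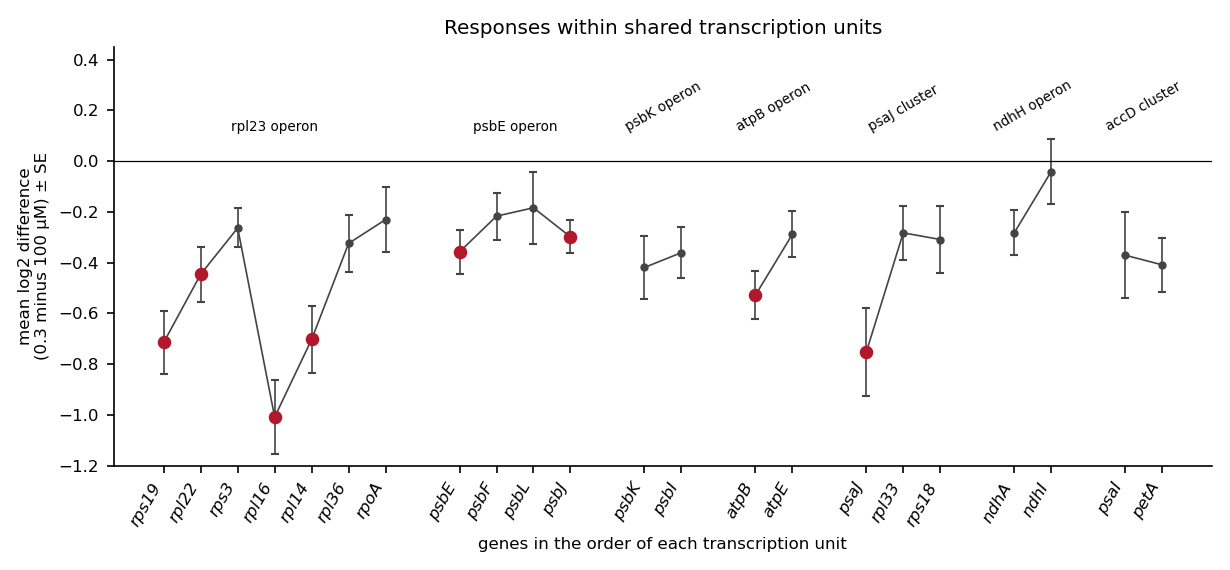
Mean log2 difference (0.3 minus 100 µM, n = 7 genotypes) with its standard error for tested genes of 7 plastid transcription units, in genome order, with lines joining genes of a unit. Red points passed the threshold. Within the rpl23 unit means run from -1.01 (rpl16) to -0.23 (rpoA), and within the psbE unit from -0.36 to -0.18.

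The median over the 34 was -0.33 in wild type, -0.47 in bor1, -0.53 in bor2, -0.17 in nip5;1, -0.77 in nip5;1 bor1, -0.38 in nip5;1 bor2 and -0.10 in nip5;1 nip6;1. All 7 medians were below those of all tested probe sets, which ran from -0.04 to 0.02. In nip5;1 bor1 33 of 34 were lower, 25 of them by at least 0.5 log2 units (8.81% of all tested probe sets in that pair). In nip5;1 nip6;1 20 of 34 were lower, 2 of them by at least 0.5 (6.23% of all tested probe sets). These single pairs have no replicate check.

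The quality and marker values of each pair stand beside these medians. The GAPDH ratio went from 1.42 at 100 µM to 1.38 at 0.3 µM in nip5;1 bor1, which had the lowest plastid median, and from 1.15 to 1.69 in nip5;1 nip6;1, which had the highest. In wild type it went from 1.77 to 1.60, with a plastid median of -0.33. The ratio rose from 1.31 to 1.81 in bor2, from 1.60 to 1.90 in bor1 and from 1.36 to 1.75 in nip5;1 bor2. Plastid medians of these pairs were -0.53, -0.47 and -0.38. In nip5;1 the ratio rose from 1.50 to 1.63, with a plastid median of -0.17. Its part in the plastid values of single pairs was not tested. The corresponding actin ratio was high on every array, at 14.3 ± 3.20 (SD, n = 7) at 0.3 µM and 12.5 ± 3.24 at 100 µM, with 8.57 the lowest. In nip5;1 bor1 it went from 9.79 to 19.8. The part of the actin ratio in the plastid values, of that pair or of the others, was not tested. The 25S ribosomal RNA control was 7735 ± 921 (SD, n = 7) at 0.3 µM and 8634 ± 1004 at 100 µM. Its log2 difference was -0.62 in bor2, -0.49 in nip5;1 bor2, -0.22 in nip5;1 bor1, -0.08 in wild type, 0.05 in bor1, 0.03 in nip5;1 nip6;1 and 0.20 in nip5;1. Of the 4 genotypes with the lowest plastid medians 3 had the lowest 25S differences, and the part of this control in the plastid values was not tested. In bor2 the summed signal of the 3 shoot markers went from 1628 to 3276, while the plastid median was -0.53. In the other 6 genotypes that sum was lower at 0.3 µM, as from 1686 to 1073 in nip5;1 bor1, and the part of shoot tissue in the plastid values of those pairs was not tested.

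**Figure D4:**
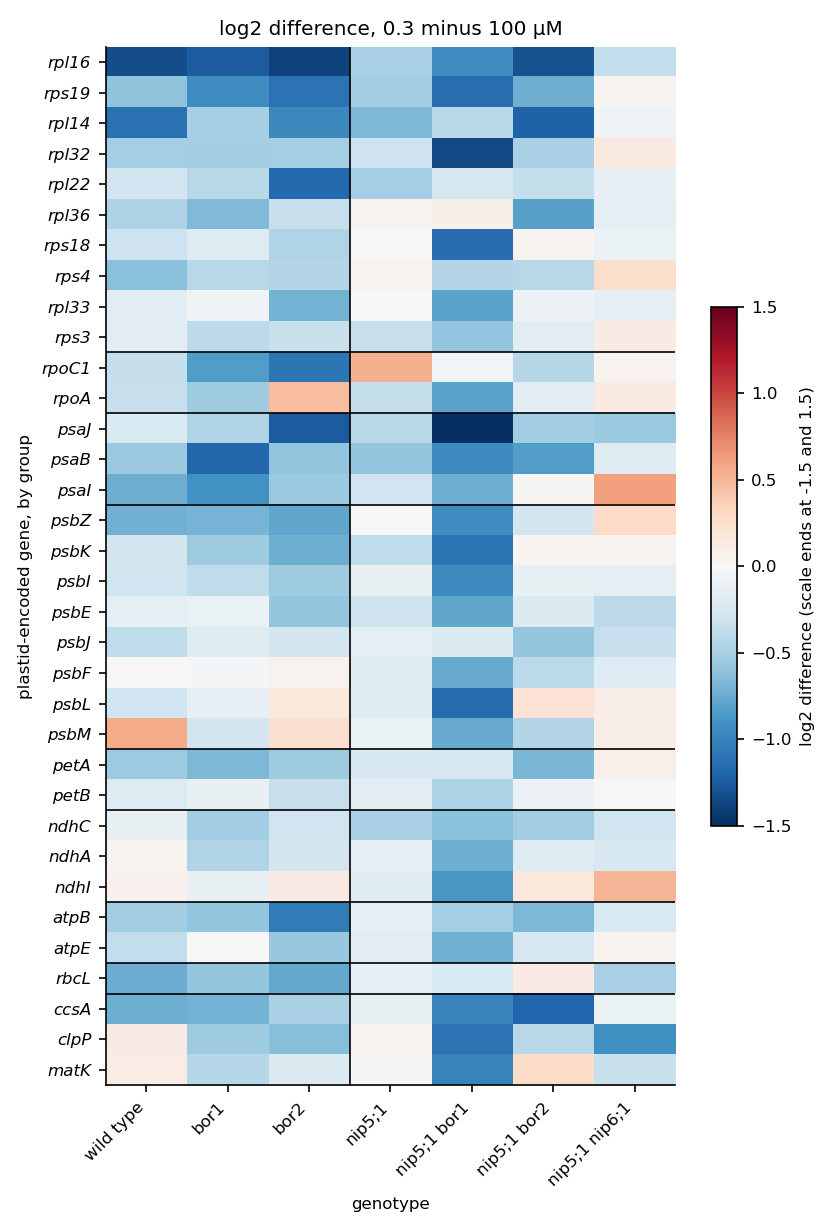
Log2 difference in signal (0.3 minus 100 µM) of the 34 tested plastid-encoded transcripts in each of the 7 genotypes, with genes in rows by functional group and the genotypes with the intact channel left of the vertical line. Blue is lower and red higher at 0.3 µM, and the colour scale ends at -1.5 and 1.5. The nip5;1 bor1 column is the bluest (33 of 34 lower) and the nip5;1 nip6;1 column the palest (20 of 34 lower).

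**Figure D5:**
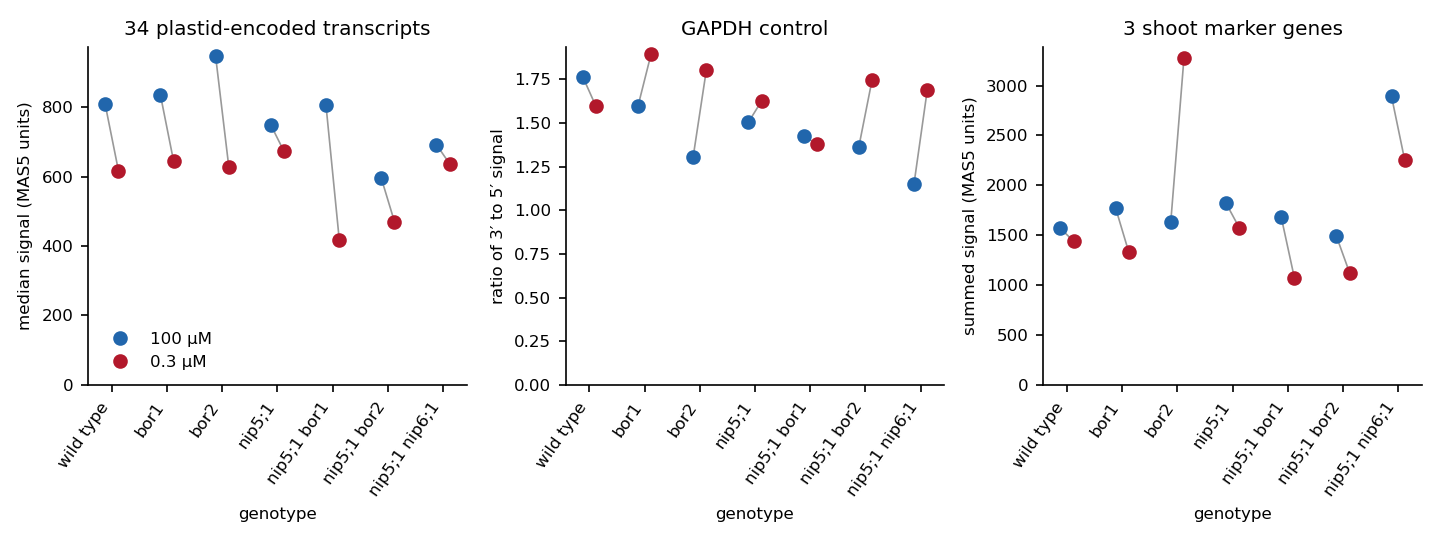
Median signal of the 34 tested plastid-encoded transcripts, GAPDH control signal at 3′ over that at 5′ and summed signal of 3 shoot marker genes in each genotype, at 100 µM (blue) and 0.3 µM (red) boron, 1 array per point. The plastid median is lower at 0.3 µM in all 7 genotypes, the GAPDH ratio is higher in 5 of 7 and the shoot marker sum is higher in bor2 alone.

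In the 3 genotypes with the intact channel, only rpl16 fell (difference -1.32, SE 0.19, n = 3 genotypes, limma adjusted p = 0.0274), which is 1 of 34 against 0.0293% of all tested probe sets. The intact genotypes and the channel mutants were fitted in the same model. Their standard errors therefore share an estimate of the spread drawn from all 7 genotypes. The median of the 34 was -0.45 there, 31 of 34 estimates were below 0 (52.8% of all tested probe sets) and 21 had an unadjusted p under 0.05 (8.41% of all). The nearest to the threshold was atpB, at -0.72 (SE 0.13, adjusted p = 0.0768). The rpl16 call was lost without wild type, bor1, bor2, nip5;1 or nip5;1 bor1 (adjusted p up to 0.177), with no filter (adjusted p = 0.328) and with the GAPDH covariate (adjusted p = 0.109).

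In the 4 channel mutants 4 of 34 transcripts fell, against 2.32% of all tested probe sets. They were rpl16 at -0.77 (SE 0.17, n = 4 genotypes, limma adjusted p = 0.0228), psaB at -0.64 (SE 0.14, adjusted p = 0.0264), ndhC at -0.48 (SE 0.09, adjusted p = 0.0132) and psbF, the β subunit gene of the photosystem II cytochrome, at -0.39 (SE 0.10, adjusted p = 0.0465). For psbF the signals ran from 1247 to 1868 at 0.3 µM and from 1929 to 2141 at 100 µM in the channel mutants. In the intact genotypes psbF differed by 0.01 (SE 0.11). Its call was lost without any genotype other than bor2 (adjusted p up to 0.193, with -0.27 without nip5;1 bor1), and with quantile scaling (0.0519), the upper 40% of probe sets (0.0524) or no intensity trend (0.0746). The median of the 34 was -0.31 and 33 estimates were below 0 (49.5% of all tested probe sets), with 18 at an unadjusted p under 0.05 (19.2% of all). Leaving out nip5;1 bor1 left 0 calls, leaving out nip5;1 or nip5;1 bor2 left 1, and leaving out bor2 gave 8. With no filter or with the GAPDH covariate 0 passed, and 2 passed when the upper 40% of probe sets were tested.

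The test of the difference between these responses gave 0 of 34 members, against 0.11% of all tested probe sets. At an unadjusted p under 0.05 there were 3 of 34, a share near the 7.51% of all tested probe sets. They were rpoC1, with -0.76 in the intact genotypes and 0.03 in the channel mutants (difference 0.79, SE 0.26, adjusted p = 0.426), rbcL with -0.70 and -0.18 (difference 0.51, SE 0.19, adjusted p = 0.50), and psbF (difference -0.40, SE 0.15, adjusted p = 0.513). The median difference was 0.04. By group, all 10 ribosomal estimates of the difference were above 0 (median 0.28) and all 3 ndh estimates below (median -0.12), with 0 past the threshold in either, so a response that differs between the classes was not shown for any member.

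Comparing the classes within a boron level also gave 0 members, with genotype as a random block. At 100 µM, where 0% of all tested probe sets passed, 9 of 34 had an unadjusted p under 0.05 (2.83% of all), all lower in the channel mutants, and the median was -0.25. The largest of these was rpoC1 at -1.07 (SE 0.28, adjusted p = 1.00), with 98.4 to 164 in the channel mutants and 176 to 404 in the others. At 0.3 µM, where 0.989% of all tested probe sets passed, 2 of 34 had an unadjusted p under 0.05, a smaller share than the 11.7% of all, and the median was -0.18. They were ccsA at -0.52 (SE 0.20, adjusted p = 0.312) and rpl14 at -0.51 (SE 0.22, adjusted p = 0.367).

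Nuclear and mitochondrial genes of related roles were set beside the plastid transcripts. Of 23 mitochondrially encoded probe sets 4 were bright enough to test, and 0 passed (median -0.01), where 1.82% of all tested probe sets fell. At an unadjusted p under 0.05 there were 0 of the 4 (19.9% of all). So few probe sets cannot tell these counts from the shares of all. The mitochondrial probe sets below the filter had mean differences from -0.53 (nad5) to 0.49 (ccb203). The cox1 transcript, a respiratory oxidase subunit, had 156 ± 31.6 (SD, n = 7) at 0.3 µM and 157 ± 32.3 at 100 µM. Of 33 nuclear genes for plastid ribosomal proteins 9 were named and tested, and 0 passed. Of the 9, 3 had an unadjusted p under 0.05 (19.9% of all tested probe sets did). All 9 estimates lay below 0 (51.1% of all did), with a median of -0.10 beside -0.39 for the plastid-encoded ribosomal genes. The largest, PRPL19A (AT4G17560), differed by -0.31 (SE 0.08, adjusted p = 0.0658). A test of the difference between these medians was not run.

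Of 47 nuclear photosynthesis genes 8 were named and tested, and 0 passed in the average response (median -0.24), where 1.82% of all tested probe sets fell. At an unadjusted p under 0.05 there were 0 of the 8 (19.9% of all). Each of the 8 was nevertheless lower at 0.3 µM in 5 or 6 of the 7 genotypes. With bor2 left out, 7 genes of all nuclear comparison lists together passed in the average response, in place of 1. In the channel mutants 1 of the 8 fell, against 2.32% of all tested probe sets. It was ATPC1, the γ subunit gene of the plastid ATP synthase (-0.56, SE 0.13, adjusted p = 0.0288). An unadjusted p under 0.05 was found for 5 of the 8 (19.2% of all tested probe sets). In the intact genotypes their median was 0.14, where that of the plastid transcripts was -0.45, and in the channel mutants it was -0.46, beside -0.31. The summed signal of these nuclear genes went from 3955 to 7274 in bor2 and was lower at 0.3 µM in the other 6 genotypes. Among the intact genotypes it went from 3400.5 to 3015.1 in wild type and from 3955.2 to 3143.9 in bor1, so only bor2 rose there. Of 12 chlorophyll synthesis genes 2 were named and tested, CHLM and PORB. In the average response, where 1.82% of all tested probe sets fell, CHLM, a methyltransferase of the pathway, fell (difference -0.33, SE 0.06, adjusted p = 0.0215). That call was lost with the GAPDH covariate, with no filter, and without nip5;1, nip5;1 bor1 or nip5;1 bor2. PORB, a protochlorophyllide reductase, differed by -0.61 (SE 0.17, adjusted p = 0.0742). In the channel mutants both fell, CHLM at -0.36 (SE 0.09, adjusted p = 0.0425) and PORB at -0.91 (SE 0.19, adjusted p = 0.0217).

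The tested members varied together over the 14 arrays to unequal degrees. The Pearson correlation of a member's log2 signal with the mean of the other 33 ran from 0.12 for psbM and 0.34 for rpl36 to 0.95, with a median of 0.78. The 14 arrays share the boron levels and the genotypes, so these are descriptions without a test. Among 7332 nuclear probe sets that name 1 gene, the pattern most like the members' mean was that of AT1G29070, a plastid ribosomal protein gene (r = 0.87, n = 14 arrays). It had 808 ± 44.6 (SD, n = 7) at 0.3 µM and 883 ± 32.5 at 100 µM, a difference of -0.13 (adjusted p = 0.266). It was followed by AT3G27610 (0.86), AT1G70810 (0.84), AT2G07751 (0.83) and AT1G61260 (0.82), of which none passed the threshold in the average response (adjusted p from 0.0645 to 0.341). The probe set of AT2G07751 is by its name of a type shared between genes, so its signal may not come from that nuclear gene alone.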

How the data were processed

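The deposited table holds linear MAS5 intensity values. Per the submitters' processing notes MAS5 was the tool, with version and settings not given in the sources used here. It has no detection calls. Of 22810 probe sets 64 controls were left out, and 0 columns of other samples were present. Arrays were scaled to a common trimmed mean (2% cut at each end, factors 0.99955 to 1.0005), the floor was the 20th percentile of all values, and log2 was taken. Precision is limited by the number of arrays.

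Gene names came from the platform annotation, updated through the RefSeq table of assembly TAIR10.1. Of all probe sets 13513 name 1 gene (13436 found in that table), 503 several and 8730 are not listed. Another 8 probe sets name both copies of a duplicated plastid gene and were not members. Mitochondrial probe sets were matched by gene symbol, since their identifiers differ between these tables. No probe set is named for any of the mutated transporter genes, so the mutations could not be checked. Of the lists of nuclear genes for plastid RNA polymerases and for plastid RNA processing only RPOTmp was named, below the filter (mean signal 73.6).

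Tests used limma 3.58.1 in R 4.3.3 with statmod 1.5.0 (lmFit and contrasts.fit, then eBayes with its trend option), two-sided, at an adjusted p of 0.05. Genotype was a fixed block in the responses to boron (6 residual degrees of freedom in the average response, over 7 pairs) and a random block (consensus correlation 0.105) between classes. The fits were tested on simulated data. Python 3.11.15 with numpy 2.4.6, pandas 2.3.3 and matplotlib 3.10.9 served the rest.

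Members, gene lists and tests were chosen with earlier results of these data known. The rule for named genes took members past a threshold, the members of highest and lowest mean signal per group, those nearest the filter, and the 5 nuclear probe sets most alike. Other members were named to complete their groups after their values were seen. Alternatives were quantile and median scaling, no filter, the upper 40% of probe sets, a floor at the 10th percentile, no trend or a robust prior, the GAPDH ratio as covariate, other uses of the genotype block and each genotype left out.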

Additional observations from a re-analysis of the deposited data

Results flagged for a closer look

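Among 50 sets of 7 arrays or genotypes checked for a value far from the rest, 5 were picked out, and chance picks out about 1 in 20. On the bor2 array at 100 µM, rpl16 read 375 (next 206), rpl22 1421 (next 1090) and rps19 1227 (next 832), each the highest of 7 and apart from the others. The log2 difference of rpl22 in bor2 was -1.17, with the next lowest at -0.50. These 4 share 1 array, and the 3 genes lie in 1 transcription unit. The summed signal of the 3 shoot markers on the nip5;1 nip6;1 array at 100 µM was 2890 (next 1822).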

How the results depend on the processing

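The median difference of the 34 transcripts in the average response kept its sign under every alternative run, from -0.42 (GAPDH ratio as covariate) to -0.28 (no filter, over all 69), and from -0.39 to -0.31 with a genotype left out. Counts of calls moved more. In the average response 11 members became 0 with no filter, 0 with the GAPDH covariate 6 with no genotype block and 8 with a random one, and 4 to 10 with a genotype left out. In the intact genotypes 1 became 0 with no filter, in the upper 40% or with the covariate (0 to 1 with a genotype left out). In the channel mutants 4 became 0, 2 and 0 under the same alternatives (0 to 8). The 1 gene of the comparison lists called in the average response, where alone they were rerun, became 0 with no filter, 0 with the covariate, 2 with a random block and 0 to 7 with a genotype left out, 7 without bor2. Over all probe sets, the average response went from 514 to 13 with no filter, 333 in the upper 40% and 27 with the covariate (124 to 600 with a genotype left out). The intact response went from 18 to 5 with no filter and 11 with the covariate (9 to 18), and the channel mutant response from 706 to 182, 422 and 223 (267 to 945). The difference of the responses went from 15 to 0 with no filter and 7 in the upper 40% (2 to 45). The comparison at 0.3 µM went from 135 to 65, 68 and 67 (25 to 241), and that at 100 µM from 0 to 2 with no filter (0 with any genotype left out). The cause of these changes was not tested. No sign reversed among 257 alternative values of single called genes, of which 158 kept the call and 99 lost it. The pairs of the main test are the arrays of a genotype. By replicate number, no paired analysis was possible because the labels give every array the number 1. Signals near background limit what can be read of the 35 dim members.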
